A study of Mus musculus with 6 samples.

Results

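Complex I (NADH:ubiquinone oxidoreductase) genes were examined in quadriceps muscle of male C57BL/6 mice at 20 weeks of age. MERKO mice carry a muscle-specific deletion of the estrogen receptor ERα (gene Esr1), wild-type mice were the control, and 3 libraries of total RNA were sequenced per genotype. The promoter that drives the deletion is not given in the sources used here, and whole muscle also holds vessels, nerve, fat and connective tissue, in which fewer cells of a type and less RNA per cell cannot be told apart. The members are the protein-coding genes of the deposited count table whose symbol starts with Nduf. There were 46 of them among 48795 genes, namely 38 subunits and 8 assembly factors named Ndufaf. Of the 38, Ndufa4 and its paralogue Ndufa4l2 keep a complex I symbol although Ndufa4 protein is now placed in complex IV, which leaves 36 nuclear genes of complex I proper. Ndufb1 was not analysed here.

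Complex I is the largest enzyme of the respiratory chain. It oxidises NADH from fuel breakdown, passes the electrons along iron-sulfur clusters to ubiquinone and pumps protons across the inner mitochondrial membrane. The N module binds and oxidises NADH, the Q module reduces ubiquinone, and the membrane arm, here divided into a proximal and a distal part, holds the proton pumps. The assembly factors join these modules or modify subunits and are absent from the finished enzyme. Oxidative muscle fibres hold more mitochondria, and thus more of this enzyme, than glycolytic ones.

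The libraries held between 14935532 and 44282448 counts, and the targeted gene Esr1 had 6.75, 9.43 and 7.46 CPM in MERKO against 25.1, 34.1 and 31.1 CPM for control, with no overlap (log2 fold change -1.95, adjusted p = 0.0262, edgeR). Here and below, 3 values in a row are those of replicates 1, 2 and 3. CPM is the count of a gene scaled to library size, with TMM factors that correct for library make-up. The muscle genes Acta1, Ckm and Mb summed to between 36053 and 48547 CPM. The rRNA gene model CT010467.1 took between 6.19% and 32.4% of counts in 5 libraries and 0.0433% in control 3, the deepest one. The members took between 0.281% and 0.656% of all counts, and no member fell under the filter on low counts, with at least 30 counts in every library.

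The sequences around the starts of complex I genes are given first, as a description. Of the 46 members, 40 had an entry in the RefSeq promoter table (GRCm38.p6), which spans 250 bases before to 50 bases after each start. On either strand, GCGCANGCG, a core of the site of nuclear respiratory factor 1 (NRF1), an activator of mitochondrial genes, occurred in 10 of these 40 members and in 7.03% of the 27025 genes of the table. AAGATGGC, a site of the factor YY1, occurred in 8 members and in 3.19% of all genes, and each of the 8 matches began 10 to 38 bases after the start. CCGGAAGT, a site of GABP and other Ets factors, occurred in 1 member, Ndufs3, and in 4.31% of all genes. TCAAGGTCA, a site of estrogen-related receptors, occurred in 0 members and in 0.466% of all genes. A gene with several or overlapping matches was counted once. In Ndufs6, which held both an NRF1 and a YY1 match, these did not overlap. A match describes letters and not a bound site, and no factor's binding was measured. The genes of the promoter table were not limited to those tested in this muscle, so the shares do not compare the members with expressed genes. Whether these letters bear on the levels of the members was not tested. The 4 windows below are shown because they carry the NRF1 letters (capitals, gene strand, 5′ to 3′) outside annotated genes, or, for Ndufaf5, in the gene whose values differed most between the groups. In the order printed, they lie at chr4:123718251-123718309 (minus strand), chr16:37654526-37654584 (minus strand), chr17:56717700-56717735 (plus strand) and chr2:140170652-140170680 (plus strand, within the annotated gene).
Ndufs5: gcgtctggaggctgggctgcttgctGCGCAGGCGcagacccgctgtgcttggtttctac
Ndufb4: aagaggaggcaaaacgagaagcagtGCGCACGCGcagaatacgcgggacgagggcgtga
Ndufa11: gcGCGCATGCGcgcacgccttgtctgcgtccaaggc
Ndufaf5: agtcccgttgGCGCATGCGcctaatagaa

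The main comparison asked whether complex I transcripts differed between MERKO and control muscle. No member passed the threshold, an adjusted p under 0.05 over all 13628 genes tested (edgeR quasi-likelihood test, Benjamini-Hochberg adjustment), where 0.00734% of all genes passed. At an unadjusted p under 0.05 there was 1 member, Ndufaf5, which was lower in MERKO, a class that held 3.34% of all genes. DESeq2 called 0 members, with a lowest adjusted p of 0.0846, again for Ndufaf5. The groups did not overlap in CPM in 1 member on the lower side, also Ndufaf5, and in 0 on the higher side, against 7.10% and 6.17% of all genes.

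The subunits were close to equal in both groups. Their summed level was 5169, 3626 and 4069 CPM for MERKO against 5323, 3858 and 3947 CPM for control. The groups overlapped, since replicate 1 was the high library of each. The log2 fold change, MERKO minus control, was above 0 in 13 subunits and below 0 in 25, with a median of -0.04 and a range from -0.30 to 0.11, beside a median of 0.01 and 47.9% below 0 over all genes tested. Leaving out a single library moved the count above 0 to 0 (MERKO 1 left out), 28 (MERKO 2), 30 (control 1), 4 (control 2) or 1 (control 3). In the same order, the median moved to -0.18, 0.06, 0.10, -0.10 or -0.09. The fit without MERKO 3 is not in this list, and 8 subunits changed sign in it. The sign of these small values thus rested on single libraries. The 95% interval lay within a 1.5-fold change in either direction for 37 of the 46 members and within a 2-fold change for all 46, where 7370 and 10714 of the 13628 genes met these limits.

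**Figure D1:**
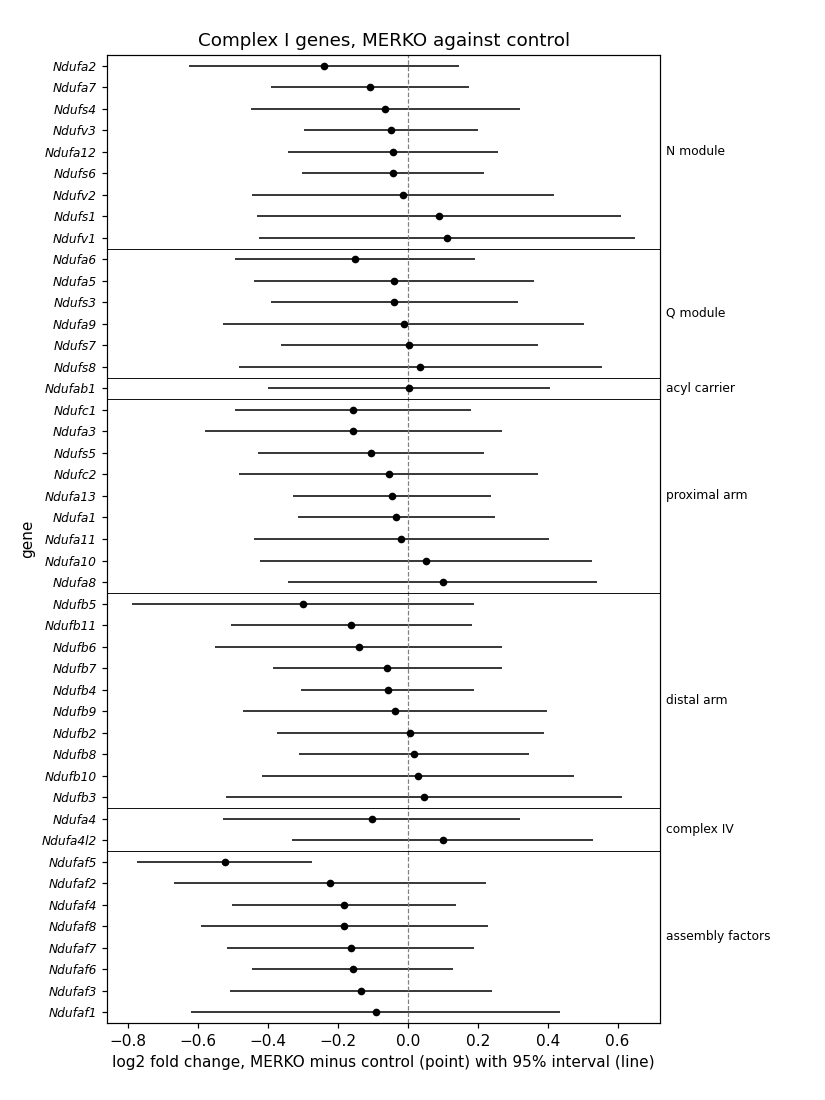
Log2 fold change of the complex I genes reported here (points) with 95% intervals (lines), MERKO minus control, in 3 libraries per group, ordered by module. The interval of Ndufaf5 runs from -0.78 to -0.27, and those of all other genes plotted include 0.

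The catalytic core comprises 7 nuclear-encoded subunits that carry the flavin, the iron-sulfur clusters or the ubiquinone site, of which 5 had values above 0 and 2 below, with a median of 0.03. Ndufv1 binds NADH and the flavin and stood at 333, 212 and 223 CPM for MERKO against 311, 215 and 185 CPM for control. MERKO 1 and control 1 were high and the other 4 libraries lay close together (log2 fold change 0.11, SE 0.23, adjusted p = 0.928, edgeR). Ndufs1, the largest iron-sulfur subunit, showed the same order, with 405, 261 and 300.04 CPM for MERKO against 395, 281 and 232 CPM for control (0.09, SE 0.23, adjusted p = 0.943, edgeR). Ndufv2, a partner of Ndufv1 with an iron-sulfur cluster, averaged 198 ± 43.1 and 200.03 ± 37.6 CPM (SD, n = 3 per group; MERKO first here and below). Ndufs7, which holds the last cluster before ubiquinone, averaged 143 ± 21.9 and 143 ± 26.3 CPM (log2 fold change 0.00, 95% interval -0.36 to 0.37). For Ndufs8 the mean was 79.7 ± 22.1 and 77.9 ± 19.7 CPM, and for Ndufs3 it was 107 ± 17.9 and 109.9 ± 17.3 CPM.

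Accessory subunits of the 2 peripheral modules had small values on both sides of 0. Over the N module, 2 of 9 members were above 0 and 7 below (median -0.04), and over the Q module 3 of 7 above and 4 below (median -0.01). Ndufa2, an accessory protein of the N module, had the lowest unadjusted p there and stood at 76.7, 58.7 and 55.6 CPM for MERKO against 86.5, 60.1 and 79.0 CPM for control. Its groups overlapped, and its log2 fold change was -0.24 (95% interval -0.63 to 0.15, adjusted p = 0.762, edgeR). Ndufa7 averaged 70.0 ± 6.77 and 75.4 ± 9.73 CPM (-0.11, -0.39 to 0.17). Ndufs4, whose loss causes a mitochondrial disease and which helps to hold the N module in place, averaged 86.1 ± 15.1 and 90.1 ± 17.04 CPM (-0.06, -0.45 to 0.32). In the Q module Ndufa6, which binds an acyl carrier protein, averaged 105 ± 16.7 and 117 ± 16.9 CPM (-0.15, -0.49 to 0.19), and Ndufa5 averaged 78.0 ± 16.9 and 80.2 ± 12.2 CPM (-0.04, -0.44 to 0.36). Ndufab1, the mitochondrial acyl carrier protein that sits in both arms, averaged 48.8 ± 9.96 and 48.8 ± 8.63 CPM (0.00, -0.40 to 0.41).

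Membrane arm subunits showed the same narrow range. In the proximal part 2 of 9 members were above 0 and 7 below (median -0.04), and in the distal part 4 of 10 above and 6 below (median -0.05). Ndufb5, a membrane-anchored subunit of the distal part, had the largest size of all subunits at -0.30 (95% interval -0.79 to 0.19, adjusted p = 0.764, edgeR). It stood at 189, 116 and 130 CPM for MERKO against 222, 149 and 164 CPM for control, so MERKO 1 lay above 2 of the controls, and the value ran from -0.54 to -0.11 over the fits that left out 1 library. Ndufb11, an X-linked subunit, averaged 117 ± 18.8 and 131 ± 19.3 CPM (-0.16, -0.51 to 0.18), and Ndufb6 averaged 51.4 ± 8.84 and 56.7 ± 12.8 CPM (-0.14, -0.55 to 0.27). Among proximal members, Ndufc1 averaged 66.7 ± 11.5 and 74.4 ± 9.57 CPM (-0.16, -0.49 to 0.18) and Ndufa3 averaged 65.0 ± 14.99 and 72.5 ± 12.9 CPM (-0.16, -0.58 to 0.27). The means of Ndufs5 were 28.7 ± 3.26 and 30.9 ± 5.06 CPM (-0.11, -0.43 to 0.22). Ndufa4, the complex IV subunit with the old name, averaged 211 ± 44.7 and 227 ± 42.7 CPM (-0.10, -0.53 to 0.32). Its paralogue Ndufa4l2, a hypoxia-induced gene, was far lower at 4.41, 3.70 and 3.08 CPM for MERKO against 3.57, 3.79 and 3.23 CPM for control, with overlapping groups (0.10, -0.33 to 0.53).

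The 8 assembly factors had values below 0 without exception in this fit, with a median of -0.17. Over all genes tested, 47.9% were below 0 and the median was 0.01. These 8 genes were measured in the same libraries, with MERKO 2 the lowest in 7 of them, so their signs are not independent of each other. Their summed level was 133, 96.6 and 113 CPM for MERKO against 149, 124 and 130.2 CPM for control, so MERKO 1 lay above 2 of the 3 controls. No assembly factor passed the threshold (edgeR, lowest adjusted p = 0.631). The count above 0 became 1 when MERKO 2, control 1, or both MERKO 2 and control 2 were left out, and it was 0 in the other 11 alternatives. The median stayed between -0.30 and -0.07 in all 14. The member above 0 in these 3 cases was Ndufaf1, whose leave-one-out values ran from -0.37 to 0.09.

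Ndufaf5 (ENSMUSG00000027384.6, chromosome 2, 140170649 to 140203689, plus strand, GRCm38) encodes an arginine hydroxylase that modifies the core subunit Ndufs7 early in assembly. Its counts were 748, 229 and 488 in MERKO and 743, 370 and 1844 in control, which correspond to 22.7, 19.3 and 23.5 CPM for MERKO against 31.2, 29.2 and 33.9 CPM for control. All 3 MERKO values were thus lower than the lowest control value. Groups without overlap on this side occurred in 7.10% of all genes tested, so 1 such gene among 46 members is not above the background. The log2 fold change was -0.52 (SE 0.11, 95% interval -0.78 to -0.27), or 69.5% of the control level (58.4% to 82.7%). Its unadjusted p of 0.00128 ranked 22nd of 13628 genes, and its adjusted p of 0.631 was far from the threshold (edgeR). Leaving out single libraries gave values from -0.57 to -0.44, and the adjusted p ran from 0.0575 to 0.999 over all alternatives. MERKO 1 was not among its 2 highest libraries. Its principal transcript shared no annotated exon and no stretch of 50 bases with another gene. Its head-to-head neighbour Esf1, a nucleolar protein gene that starts 84 bases away, stood at 13.8, 11.4 and 14.8 CPM for MERKO against 13.9, 14.1 and 17.4 CPM for control, with overlapping groups (-0.18, -0.50 to 0.14). The substrate gene Ndufs7 had the value 0.00 given above.

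Markers of fat moved in the same direction as Ndufaf5. The 6 adipocyte genes (Adipoq, Lep, Retn, Plin1, Cidec and Cfd) were all below 0, 6 of 6 at an unadjusted p under 0.05 and 0 of 6 past the threshold (edgeR), and summed to between 14.6 and 44.7 CPM for MERKO against between 45.0 and 296 CPM for control. None of them was at 0 in any library. Over all 13628 genes tested, 960 had an unadjusted p under 0.05 on either side (edgeR). Genes of 1 list mark the same tissue in the same libraries, so they are not independent of each other. With replicate number as a block, Lep, Cidec and Cfd passed the threshold, as did the tendon gene Kera. By library, the adipocyte sum was 14.6, 39.7 and 44.7 CPM in MERKO and 45.0, 296 and 130 CPM in control. The 5 tendon genes (Tnmd, Comp, Kera, Fmod and Thbs4) were all above 0, 4 of 5 at an unadjusted p under 0.05 and 0 past the threshold (edgeR; DESeq2 called Kera, adjusted p = 0.0341), and summed to between 78.2 and 383 CPM for MERKO against between 27.9 and 78.7 CPM for control. The part of these tissues in the Ndufaf5 value was not tested.

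The other assembly factors overlapped between groups. Ndufaf4, which acts with Ndufaf3 on the Q module, stood at 33.5, 24.5 and 28.7 CPM for MERKO against 37.6, 30.5 and 30.6 CPM for control (-0.18, 95% interval -0.50 to 0.14). Ndufaf3 itself averaged 7.65 ± 1.41 and 8.44 ± 0.977 CPM (-0.13, -0.51 to 0.24). Ndufaf6, a putative phytoene synthase-like protein of early assembly, averaged 11.6 ± 0.846 and 12.9 ± 1.56 CPM (-0.16, -0.44 to 0.13). Ndufaf7, a methyltransferase of early assembly, averaged 8.86 ± 1.44 and 10.001 ± 1.21 CPM (-0.16, -0.52 to 0.19). Ndufaf2, a late factor that is replaced by Ndufa12, was the lowest at 3.77, 2.53 and 3.99 CPM for MERKO against 4.07, 4.18 and 3.99 CPM for control (-0.22, -0.67 to 0.22), and MERKO 2 alone was low. Ndufaf8, a partner of Ndufaf5, averaged 6.97 ± 0.665 and 7.78 ± 1.71 CPM (-0.18, -0.59 to 0.23). Ndufaf1, which acts in the membrane arm, averaged 25.03 ± 7.97 and 26.9 ± 5.31 CPM.

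**Figure D2:**
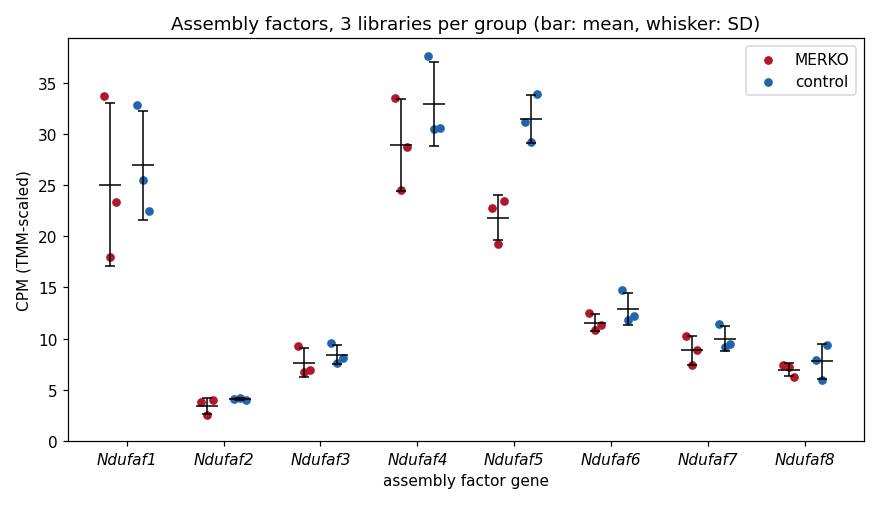
CPM of the 8 assembly factors in each library (coloured points, MERKO to the left of control), with the group mean (bar) and SD (whisker) of 3 libraries. Ndufaf5 is the 1 gene in which the groups do not overlap, with MERKO between 19.3 and 23.5 CPM and control between 29.2 and 33.9 CPM.

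Of complex I assembly factors with other names, 13 were tested, with 4 above 0, 9 below and a median of -0.05. None passed the threshold, and 1 of 13 had an unadjusted p under 0.05 (edgeR), on the lower side, where 3.34% of all genes did. This was Tmem126a, a membrane protein needed to build the membrane arm, at 36.9, 33.2 and 35.8 CPM for MERKO against 43.7, 38.7 and 41.9 CPM for control. Its groups did not overlap, as in 7.10% of all genes on the lower side, so 1 such gene among 13 is near the background (-0.23, 95% interval -0.44 to -0.02, adjusted p = 0.683, edgeR). Tmem126b, its paralogue and also a factor of the membrane arm, stood at 20.9, 24.7 and 22.9 CPM for MERKO against 27.6, 23.0 and 25.9 CPM for control (-0.17, -0.42 to 0.08), with overlap.

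Complex I has 7 further subunits encoded by mitochondrial DNA, of which 6 were tested, with 5 above 0, 1 below, a median of 0.16 and 0 past the threshold at either an adjusted or an unadjusted p (edgeR). Their summed level was 4649, 3975 and 6697 CPM for MERKO against 6031, 4598 and 4188 CPM for control. The highest library was MERKO 3, in which the nuclear subunits lay below their mean. mt-Nd6 had the lowest p and stood at 39.5, 36.03 and 54.3 CPM for MERKO against 42.0, 33.1 and 24.2 CPM for control (0.39, 95% interval -0.11 to 0.90). mt-Nd5 followed with 0.33 (-0.38 to 1.04). mt-Nd3 stood between 0.421 and 1.83 CPM and mt-Nd4l had at most 1 count per library, against at least 2661 CPM for mt-Nd1. How reads from mitochondrial DNA were assigned is not given in the sources used here, so the levels of these genes relative to each other are uncertain.

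Differences between single libraries were larger than the difference between the genotypes, and the subunits shared them. As deviations from each gene's average, the mean log2 CPM of the 38 subunits was 0.25, -0.23 and -0.08 in MERKO against 0.29, -0.15 and -0.08 in control, a 1.44-fold range. The genotypes differed by -0.04 in this measure, with an SD within groups of 0.24. In 35 of 38 subunits MERKO 1 and control 1 were the 2 highest libraries. The exceptions were Ndufa2, Ndufa12 and Ndufa4l2. MERKO 2 was the lowest library in 24 of the 38. The SD of a subunit over the 6 libraries had a median of 0.24 on the log2 scale, and after the mean of the subunits was subtracted in each library the median was 0.09. Subunits varied by between 1.20-fold (Ndufv3) and 1.91-fold (Ndufb5 and Ndufb3) from the lowest to the highest library.

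**Figure D3:**
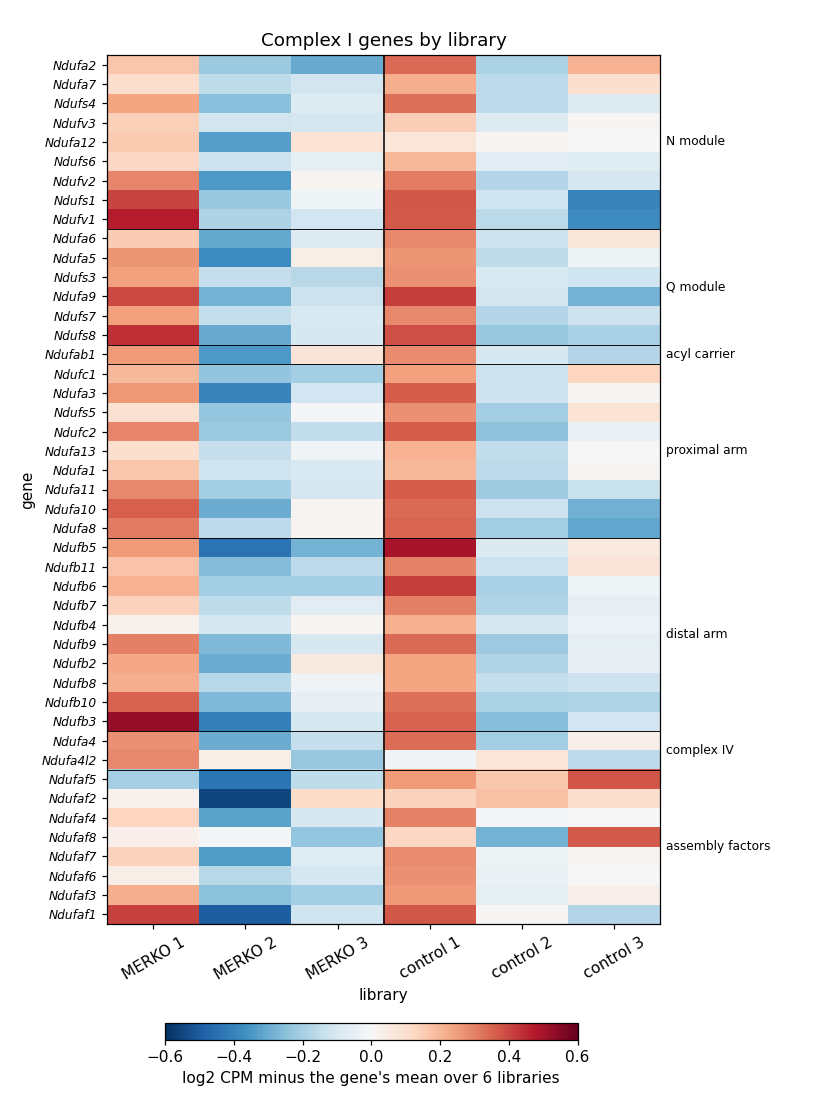
Log2 CPM of the complex I genes reported here in each library minus the gene's mean over the 6 libraries (colour, from -0.6 in blue to 0.6 in red), ordered by module. MERKO 1 and control 1 are high in nearly all subunits, and Ndufaf5 is low in the 3 MERKO libraries.

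Genes of oxidative fibres stood apart in the same 2 libraries. The 7 slow-fibre genes (Myh7, Tnnt1, Tnni1, Tnnc1, Myl2, Myl3 and Atp2a2) summed to 511 CPM in MERKO 1 and 524 CPM for control 1, and to between 35.9 and 47.1 CPM in the other 4 libraries. Myh2, the myosin of fast oxidative IIa fibres, stood at 3050 (MERKO 1) and 1514 CPM (control 1), and between 38.3 and 722 CPM elsewhere. Myh4, the myosin of glycolytic IIb fibres, was lowest in these 2 libraries, at 39867 and 55646 CPM, and lay between 63393 and 81221 CPM in the others. Without MERKO 1 and control 1 together, the median of the subunits was -0.04 and 14 of 38 were above 0, and Ndufaf5 was at -0.56. The part of fibre make-up in the levels of single libraries was not tested.

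**Figure D4:**
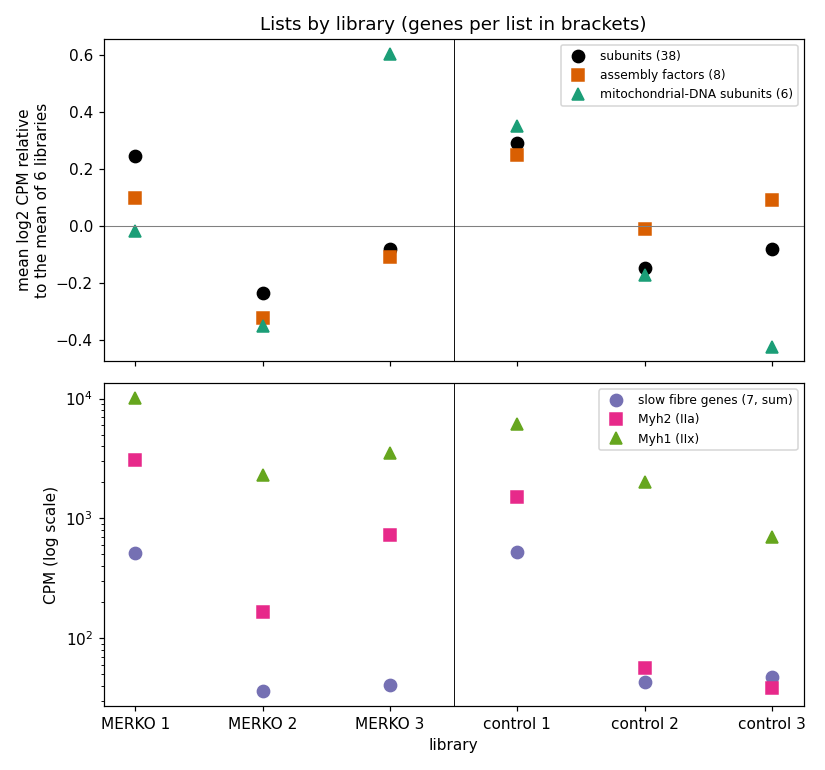
Upper panel: mean log2 CPM of the nuclear subunits, the assembly factors and the mitochondrial-DNA subunits by library, as the deviation from each gene's average. Lower panel: CPM on a log scale of 7 slow-fibre genes summed, of Myh2 and of Myh1, the myosin of IIx fibres. MERKO 1 and control 1 are high in nuclear subunits (0.25 and 0.29) and in slow-fibre genes (511 and 524 CPM).

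Control 3 departed from this common pattern in a way that followed transcript length. Across 37 subunits (Ndufa4l2 left out for its low level), the deviation from the subunit mean in control 3 correlated with log2 length of the principal transcript at Pearson r = -0.46 and Spearman rho = -0.45, where genes of 1 library share its depth and preparation. The 12 shortest transcripts, up to 680 bases, deviated by a mean of 0.09 and the 12 longest, from 1249 bases, by -0.08 on the log2 scale. In the other 5 libraries r lay between -0.17 and 0.41. The value of 0.41, in MERKO 3, was close in size to that of control 3 and opposite in sign. Deviations of a gene add to 0 over the 6 libraries, so a trend in 1 library pushes the others the opposite way. The other libraries are thus no independent comparison. Ndufs1 (-0.32), Ndufv1 (-0.30) and Ndufa8 (-0.24) were the farthest below the mean in control 3, and Ndufa2 (0.29) the farthest above. Ndufv1, Ndufa8 and Ndufs1 also had the 3 highest log2 fold changes of the 37, and Ndufa2 the lowest after Ndufb5. With control 3 left out, the values were -0.04 for Ndufv1, -0.03 for Ndufa8 and -0.07 for Ndufs1, all of which were above 0 with it, and -0.20 for Ndufa2. Control 3 also had the lowest share of rRNA reads and the greatest depth, whose part in this pattern was not tested.

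**Figure D5:**
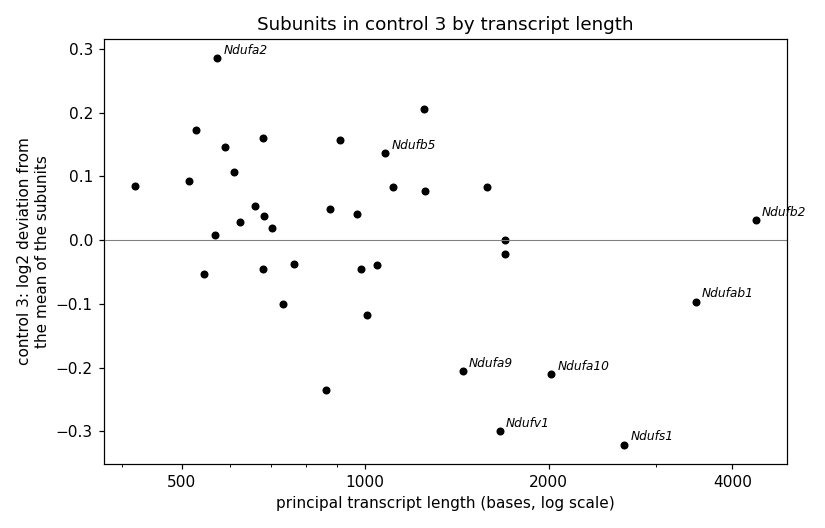
Deviation of 36 of the 37 subunits in control 3 from the mean of the subunits in that library (log2 scale) against the length of the principal transcript (bases, log scale). Each point is 1 gene, and Ndufs1 at -0.32 and Ndufa2 at 0.29 are the extremes.

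Levels per length were compared within the control group, as CPM per 1000 bases of the principal transcript. The 2 highest were Ndufa4 at 372 ± 70.0 and Ndufb9, a distal membrane arm subunit, at 340.3 ± 69.9 (SD, n = 3), which did not differ beyond their spread. Ndufa6 stood at 198 ± 28.6 and Ndufb4, near the lower end, at 32.7 ± 3.86. The lowest were Ndufab1 at 14.03 ± 2.48, Ndufa4l2 at 3.78 ± 0.298 and Ndufb2, a small distal subunit, at 2.60 ± 0.393. The values depend on the length chosen: with all annotated exons these genes (Ndufa4, Ndufb9, Ndufab1, Ndufa4l2 and Ndufb2) stood at 164, 232, 7.09, 3.22 and 2.02. Ndufb9 then ranked above Ndufa4, and the 3 lowest kept their order. The principal transcripts of Ndufb2 (4371 bases) and Ndufab1 (3479 bases) are the longest among the subunits. All their exons span 5628 and 6883 bases, so the second length is no independent check of their low rank. A shorter transcript would give these genes higher values. Ndufb2 also had the lowest CPM of the 36 complex I proteins, at 13.2, 9.18 and 11.7 CPM for MERKO against 13.3, 9.94 and 10.9 CPM for control. The assembly factors lay between 5.68 (Ndufaf3) and 27.0 (Ndufaf5) CPM per 1000 bases, each below 35 of the 38 subunits.

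Some counts could be shared with other genes. Of the 46 members, 21 had at least 1% of their 50-base stretches in transcripts of another gene, up to 39.7% in Ndufs3, 37.0% in Ndufb4, 34.1% in Ndufb6 and 31.1% in Ndufs5. The 4 processed pseudogenes of the table named Nduf had at most 5 counts per library. Counts of sharing genes with other names, such as Gm12251 for Ndufs3 and BC002163 for Ndufs5, were not examined. How multiply placed reads were counted is not given in the sources used here. Low pseudogene counts thus do not show that few reads were shared. In 8 members at least 10% of the transcript overlapped exons of a neighbouring gene, with 39.0% for Ndufb6 and Smim27, 29.98% for Ndufa13 and Tssk6 and 20.0% for Ndufb5 and Mrpl47, each on the opposite strand. In Ndufb9 (28.6%) and Ndufb8 (19.7%) the overlapping gene lies on the same strand, where a strand setting would not separate the reads. The strand setting of the counting is not given in the sources used here, so the levels of all these genes, Ndufb9 per length included, are uncertain.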

How the data were processed

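RNA of quadriceps was isolated with Trizol and made into TruSeq libraries, per the labels' protocols. The authors deposited raw read counts per gene for 6 libraries. STAR 2.5.2b, HTSeq 0.9.1, DESeq and the builds mm10 and GRCm38 are named in the submitters' processing notes. The sources used here do not state the strand setting, the annotation release or how multiply placed reads were counted. Identifiers were matched without version to symbols (48349 of 48795) and to GENCODE M21.

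Groups came from sample titles. The labels do not tie libraries to animals, so the p-values reflect only library-to-library spread, which may be technical. Any pair within a group differed beyond sampling noise (chi-square per degree of freedom at least 75.6). Some pairs across the groups had lower values, such as 18.0 for MERKO 2 and control 2 and 41.2 for MERKO 1 and control 1. The pairs of MERKO 3 with control 2 (31.2) and control 1 (45.9) were also lower. MERKO and control were compared with edgeR 4.0.16 (R 4.3.3): filterByExpr, TMM factors, quasi-likelihood test with genotype alone, 95% intervals, Benjamini-Hochberg adjustment over 13628 genes. DESeq2 1.42.0 was an alternative. On simulated counts for this comparison (5 simulations of 200 changed genes, 13382 tested), 13.2% of 1.5-fold, 56.8% of 2-fold and 90.0% of 4-fold changes were called, and 8.30% of calls were false.

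1 subunit enters the counts and medians but is not reported here by name or plotted. Named genes are the rest of the catalytic core, the 3 lowest p per module, the extremes per length, and members with an unadjusted p under 0.05 or without overlap between groups. Ndufs4, Ndufb3, Ndufv3, Ndufa8 and the assembly factors beyond the first 3 were added for their role or after their values were seen. The members and lists were chosen with earlier results of these data known. Alternatives were DESeq2, RLE factors, no composition factor, no filter, removal of mitochondrial DNA and rRNA genes, replicate number as a block, leaving out each library, and leaving out replicate 1 or replicate 2 of both groups.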

Additional observations from a re-analysis of the deposited data

How the results depend on the processing

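No member was called under any of the 14 alternatives, and none of the 644 member values moved by more than 1 SD between libraries. Leaving out 1 of the 3 libraries of a group can hardly move a value that far. For those fits this limit thus says little about stability. The lowest adjusted p was 0.0575, for Ndufaf5 with the replicate block. Over all genes, 1 gene was called, against 93 without a composition factor, 140 without a filter, 51 with the replicate block, 23 with DESeq2, 7 without MERKO 1 and control 1 together and 0 to 11 when 1 library was left out. The cause was not tested. Subunits above 0 numbered 13, against 4 without a composition factor, which moved the median of all genes to -0.10, and 0 to 30 when 1 library was left out. Assembly factors above 0 numbered 0, against 1 without MERKO 2 and control 2 together, an alternative chosen after seeing the data, and 0 to 1 when 1 library was left out. The medians of both lists stayed within 1 SD between libraries, a limit with the same weakness for fits that left out 1 library. Between 8 and 17 subunits changed sign when 1 library was left out, 9 without a composition factor and 0 to 5 under the other alternatives. The replicate numbers did not pair the libraries: deviations from the group means correlated at 0.45, 0.16 and 0.06 for numbers 1 to 3, and MERKO 2 and MERKO 3 correlated best with another number. With the replicate block 13 subunits and 0 assembly factors were above 0, and 3 of the 6 adipocyte genes (adjusted p = 0.0032 for Lep, 0.0062 for Cidec and 0.022 for Cfd) and 1 of the 5 tendon genes (0.044 for Kera) passed the threshold (edgeR). The lowest count of a member was 30, for Ndufaf2 in MERKO 2, the library that set its value apart, and no depth limit was computed per member. In simulated data at this sample size, 13.2% of 1.5-fold changes were called.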

Other observations

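Other enzymes that deliver electrons to ubiquinone, and the genes that make it, were measured in the same libraries. Of 8 genes of other ubiquinone reductases, 6 were above 0 and 2 below, a median of 0.05 on the log2 scale, MERKO minus control, and 0 past the threshold or at an unadjusted p under 0.05 (edgeR). Etfdh, which passes electrons from fatty acid oxidation to ubiquinone, had 189, 86.0 and 113 CPM for MERKO against 152, 79.0 and 71.9 CPM for control, high in replicate 1 of each group (0.36, 95% interval -0.44 to 1.16). Gpd2, the mitochondrial glycerol phosphate dehydrogenase of the NADH shuttle, had the opposite order over libraries. It stood at 123, 198 and 181 CPM in MERKO and 177, 230.4 and 199 CPM in control, lowest in replicate 1 of each group (-0.27, -0.69 to 0.15). Sqor, the sulfide reductase, was lower in all MERKO libraries than in any control, at 34.7, 38.0 and 37.8 CPM against 40.0, 39.7 and 42.3 CPM (-0.14, -0.34 to 0.05, adjusted p = 0.719, edgeR). Groups without overlap on the lower side occurred in 7.10% of all genes tested, so 1 such gene among 8 is near the background.

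Of 13 genes of coenzyme Q synthesis, 9 were above 0 and 4 below, with a median of 0.10 and 0 past the threshold or at an unadjusted p under 0.05 (edgeR). Coq8a, an atypical kinase of this pathway, spanned the widest range of them, with 782, 272 and 351 CPM for MERKO against 595, 257 and 190.03 CPM for control (0.43, -0.70 to 1.56). The groups overlapped, and the 2 libraries with high slow-fibre genes were again the highest. The lowest p of the list belonged to its paralogue Coq8b (0.35, -0.17 to 0.86), followed by Coq10b (0.18, -0.16 to 0.52). Etfdh and Coq8a were chosen after their values were seen.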
